A study of Homo sapiens with 39 samples.

Results

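RNA was compared between C4-2B cells treated for 5 days with 5 µM abiraterone acetate and cells given DMSO, the solvent of the drug, with 3 libraries in each group. C4-2B is an established castration-resistant prostate cancer line derived from LNCaP, and the same cells, culture and treatment time were shared by both groups. The libraries were chosen by their treatment labels, so that 6 of the 39 libraries of the series belong to the comparison, and it is described over the 18625 genes that passed a filter on low counts. The series asked how drugs against androgen signaling and inhibitors of PARP act alone and together. Further groups of the same 5-day panel, again with 3 libraries each, serve below for comparison. They are 1 µM olaparib, a PARP inhibitor, 5 µM abiraterone plus 1 µM olaparib, and 20 µM enzalutamide, an antiandrogen. The panel also held groups given talazoparib, another PARP inhibitor, alone or with enzalutamide. These were not compared here, but took part in the filter, the scaling and the shared fit. All results come from 1 line in culture, in medium with serum, and the labels do not say whether the 3 replicates of a group were separate cultures, so that p-values measure only the spread between these libraries.

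Androgens drive the growth and the secretory program of prostate cells by switching genes on and off. Abiraterone is a steroidal inhibitor of CYP17A1, the enzyme that turns precursors into androgens, while enzalutamide blocks androgen signaling downstream of the hormone. Genes that androgens activate, such as the kallikreins, are therefore used as a readout of the pathway, next to a smaller number that androgens repress.

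The counts added up to between 29707578 and 39905703 per library with DMSO and between 30379392 and 33135225 with abiraterone, and the 10 most abundant genes held 9.76% to 10.2% of them with DMSO and 10.9% to 11.4% with abiraterone. No pair of replicates was a duplicate, as their chi-square per degree of freedom over genes was 3.08 to 6.03, where sampling of reads alone gives about 1. Of 12 markers of luminal prostate cells 12 were detected, among them KRT8 and HOXB13, and their summed level was between 5380 and 5617 CPM (counts scaled to the size of the library by the TMM method, as are all levels below) with DMSO and between 3610 and 3696 with abiraterone, with 9 of the 12 lower and 3 higher. Of 21 markers of fibroblasts, leukocytes, endothelium and basal prostate epithelium, 10 passed the filter. The fibroblast sum was 12 to 16.1 CPM with DMSO and 20.1 to 21.8 CPM with abiraterone, the endothelial sum 13.9 to 16.4 against 20.7 to 21.3 CPM, the leukocyte sum 4.81 to 7.54 against 4.01 to 4.16 CPM and the basal sum 0.495 to 1.02 against 0.0291 to 0.381 CPM. Of these markers, COL1A2 (fibroblasts), CD3E (T cells) and TP63 (basal cells) had no count in any of the 6 libraries, and no endothelial marker did so. The filter was passed by 3 of 7 fibroblast, 4 of 6 leukocyte, 1 of 4 endothelial and 2 of 4 basal markers.

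After 5 days with abiraterone, 9853 of the 18625 genes tested (52.9%) differed from DMSO at an adjusted p under 0.05 (edgeR quasi-likelihood test with Benjamini-Hochberg adjustment, the test behind every p below). Of all genes, 4803 (25.8%) were higher and 5050 (27.1%) were lower, with a median absolute log2 fold change of 0.39 among those called. Scaling by total counts in place of TMM turned this split to 5863 higher and 3905 lower, so that the direction of changes close to 0 depends on the scaling. The shares of all genes that were higher and lower are the background for each count of list members below. Changes of at least 2-fold were more often rises, 1302 genes (6.99%) against 657 falls (3.53%), and 134 of these rises and 82 of these falls were of genes with at most 3 counts in every library of the lower group. Of the protein-coding genes tested, 61.9% were called, against 27.8% of the long noncoding RNAs and 17.5% of the pseudogenes. The share called rose from 25.8% among the 4657 genes with the lowest expression to 75.8% among the 4656 with the highest, while the median absolute log2 fold change of the called genes was 1.57 in the former and 0.25 in the latter. In these bulk samples, fewer cells that express a gene and less of its RNA per cell cannot be told apart.

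**Figure D1:**
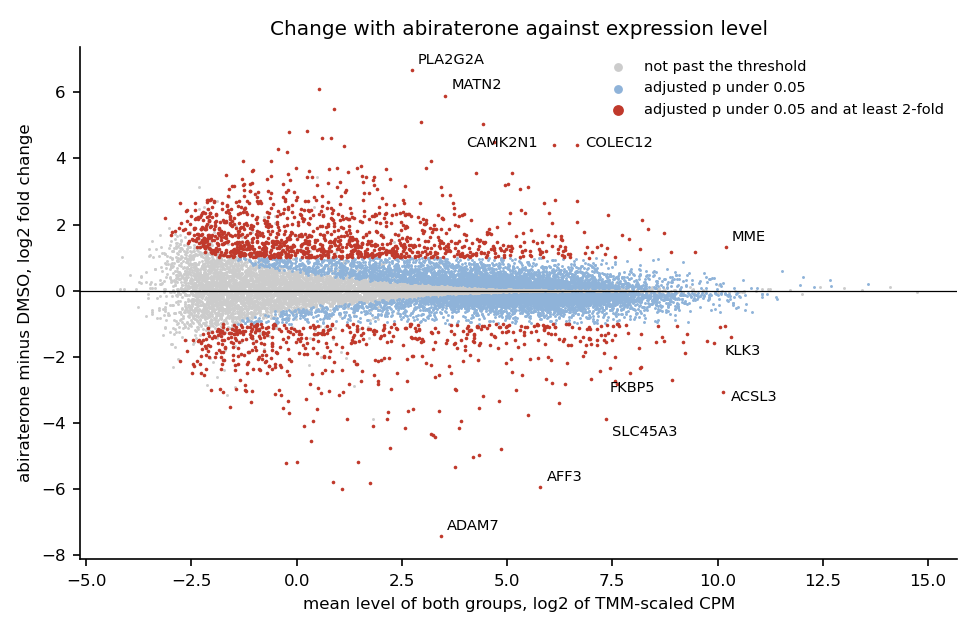
Log2 fold change (abiraterone minus DMSO) of 18267 genes against the log2 of their mean level in both groups (TMM-scaled CPM). Genes with at most 3 counts in every library of a group are left out. Called genes are spread over all levels, the changes drawn reach down to -7.42 for ADAM7 and up to 6.67 for PLA2G2A, and among genes at high levels the named falls (ACSL3, FKBP5, SLC45A3) are deeper than the rise of MME.

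Genes that androgens activate were mostly lower with abiraterone. Of 64 tested members of a list of androgen targets, 56 were lower and 5 higher, against 27.1% lower and 25.8% higher among all genes, and 42 of them fell at least 2-fold (3.53% of all genes). The median log2 fold change of the list was -1.18, while that of all genes was 0.0003.

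Among the kallikreins, a family of secreted serine proteases on chromosome 19, 4 of 5 were lower. KLK3, which encodes prostate-specific antigen (PSA; chromosome 19, 50854915 to 50860764 on GRCh38), had 1507, 1409 and 1434 CPM in the 3 DMSO libraries and 461, 497 and 498 CPM in the 3 abiraterone libraries. This was a log2 fold change of -1.58 ± 0.0452 (SE, adjusted p = 3.78e-15). KLK2, whose protease is another marker of luminal cells, had 105, 98.7 and 99.8 CPM with DMSO and 25.6, 24.1 and 25.9 CPM with abiraterone, a log2 fold change of -2.0 ± 0.0423 (adjusted p = 1.07e-29). In both genes the lowest DMSO library lay far above the highest abiraterone library. KLK4 had a log2 fold change of -0.80 ± 0.0477, and KLK15, which was expressed at 7.71, 6.93 and 6.96 CPM with DMSO, one of -1.16 ± 0.128. The pseudogene transcript KLKP1 had 2.89, 3.29 and 3.06 CPM with DMSO and 2.50, 3.11 and 2.34 CPM with abiraterone, with overlapping groups (adjusted p = 0.269). Kallikreins are similar in sequence, so that the share of reads each gets is uncertain.

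The 250 bases before the start of KLK3 are shown because KLK3 was the only one of the androgen targets tested to hold, between 250 bases before and 50 bases after its start, the inverted-repeat form of the androgen response half-site (AGAACA, 3 bases, then TGTTCT) with at most 2 mismatches over 12 bases. It is the reference sequence of RefSeq (GRCh38.p14, chr19:50854665-50854914, plus strand), read 5′ to 3′, with the match in capitals.
KLK3: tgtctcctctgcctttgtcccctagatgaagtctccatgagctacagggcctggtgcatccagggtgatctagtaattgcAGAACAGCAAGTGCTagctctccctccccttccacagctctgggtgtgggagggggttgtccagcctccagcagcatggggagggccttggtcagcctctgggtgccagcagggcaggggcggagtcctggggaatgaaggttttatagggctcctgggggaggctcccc
The match spans the bases from 170 to 156 before the start. Of all 27305 windows of this length, 1.44% held the inverted-repeat form on either strand, and of the 12283 windows of genes tested 71 (0.578%) did. It was found for 23 of 3930 genes lower with abiraterone (0.585%) and 20 of 3500 genes higher (0.571%). Among genes changed at least 2-fold it was found for 7 of 406 lower (1.72%) and 7 of 816 higher genes (0.858%). The half-site alone, AGAACA on either strand, occurred in 9.37% of the windows of genes tested, in 9.44% of those of lower and 8.29% of those of higher genes, and in 12.3% of those of genes lower and 12.3% of those of genes higher at least 2-fold. Of 49 androgen targets with a window, 6 held it, KLK3, FKBP5, PMEPA1, KLF5, NANS and PLA2G2A. These are matches of letters close to the start, and no binding was measured.

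Among membrane proteins of the androgen targets, 4 of 7 were lower and 2 higher. TMPRSS2, a membrane serine protease whose androgen-driven promoter is fused to ETS genes in many prostate tumors, had 283, 249.6 and 219 CPM with DMSO and 43.1, 47.4 and 47.3 CPM with abiraterone, a log2 fold change of -2.45 ± 0.0829 (adjusted p = 4.94e-13). SLC45A3, a transporter also known as prostein, fell further, from 315, 303 and 297 CPM to 19.9, 21.4 and 20.5 CPM (-3.89 ± 0.0409 on the log2 scale, adjusted p = 1.31e-38). STEAP4, a metalloreductase, fell from 11.7, 12.2 and 11.0 CPM to 1.05, 0.508 and 1.20 CPM. Its relatives were higher instead. STEAP2 was higher in every abiraterone library, with 798, 775 and 780.5 CPM under DMSO and 946, 979 and 906 CPM under abiraterone. STEAP1, with 204, 198 and 192 CPM and 209, 207 and 208 CPM, had a log2 fold change of 0.07 ± 0.0279 (adjusted p = 0.0329), a call that was lost without DMSO replicate B or C or abiraterone replicate A or B (adjusted p between 0.0516 and 0.235). HPN, the protease hepsin, had 28.5, 26.0 and 26.2 CPM and 29.1, 26.4 and 27.4 CPM, with overlapping groups (adjusted p = 0.524).

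Of 18 androgen targets that encode chaperones and regulators, 16 were lower and 1, the GTPase gene RHOB, was higher (log2 fold change 1.00 ± 0.0293, named after its value was seen). FKBP5, a co-chaperone of steroid receptors, had 826, 838 and 857 CPM with DMSO and 126, 132 and 132 CPM with abiraterone, a log2 fold change of -2.69 ± 0.0279 (adjusted p = 1.08e-38). PMEPA1, which dampens TGF-beta signaling, fell from 353, 340.5 and 333 CPM to 49.1, 48.2 and 48.3 CPM. In both the replicates lay close together and the groups far apart. NDRG1, a stress-responsive gene, had a log2 fold change of -0.84 ± 0.0917.

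Among 34 androgen targets of metabolism, secretion and other functions, 32 were lower and 2 higher. ACSL3, which activates long-chain fatty acids, lost the most CPM of all genes tested. It fell from 1973, 2020.0 and 1991 CPM to 236, 229.9 and 242 CPM (-3.08 ± 0.0251 on the log2 scale, adjusted p = 7.92e-42). HPGD, which inactivates prostaglandins, had 3.19, 3.17 and 3.52 CPM with DMSO and at most 3 counts in each abiraterone library, so that it was at least 36.0-fold lower. AKAP12, a scaffold protein of kinase signaling, fell from 22.5, 17.6 and 16.1 CPM to 0.523, 0.635 and 1.42 CPM, with 1 abiraterone library above the other two. CAMKK2, a kinase upstream of AMPK, had a log2 fold change of -1.11 ± 0.0463. TARP, a transcript read from the T cell receptor gamma locus in prostate cells, had 25.7, 30.1 and 28.5 CPM with DMSO and 1.95, 1.37 and 2.16 CPM with abiraterone. TRGC1, a constant segment of the same locus, was also among the largest falls, and since both overlap, their reads cannot be told apart with certainty. The members that were higher were ACP3, the prostatic acid phosphatase gene, and PLA2G2A, a secreted phospholipase. ACP3, also named after its value was seen, had a log2 fold change of 1.15 ± 0.0532. PLA2G2A had 0.136, 0 and 0.228 CPM in the DMSO libraries and 13.2, 13.7 and 12.4 CPM in the abiraterone libraries, and with 6.67 ± 0.238 it had the largest log2 rise among genes that averaged 100 counts or more with abiraterone (adjusted p = 6.07e-19).

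**Figure D2:**
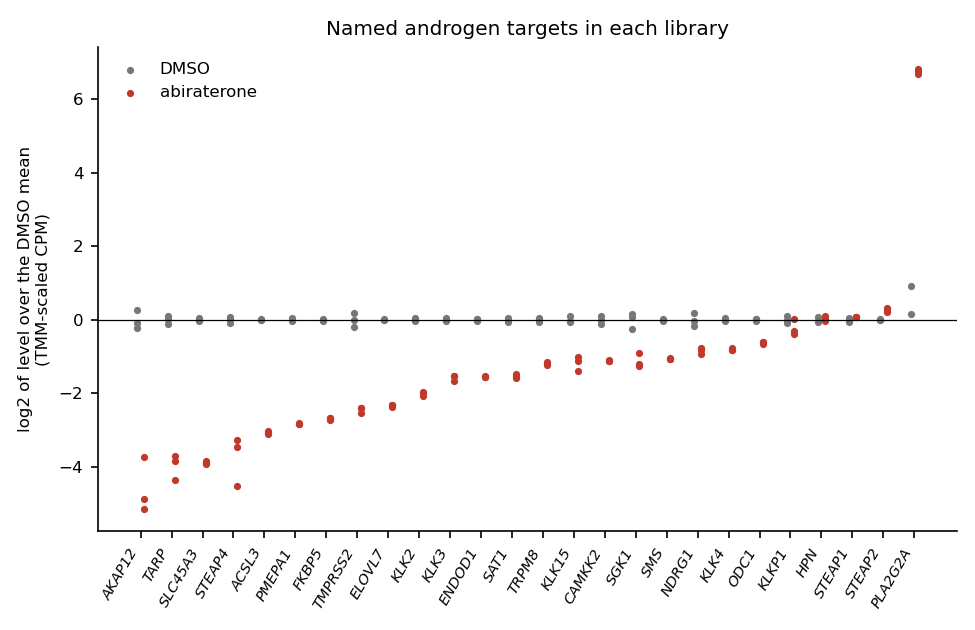
Level of 26 named androgen targets in each library (vertical axis: log2 of TMM-scaled CPM over the mean of DMSO; horizontal axis: genes ordered by log2 fold change). Grey points are the 3 DMSO and red points the 3 abiraterone libraries, and 1 DMSO library with no count of PLA2G2A is not drawn. From AKAP12 (-4.44 on the log2 scale) to ODC1 (-0.62) every abiraterone library lies below every DMSO library, and PLA2G2A lies far above.

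Factors that act with androgen signaling on chromatin changed in both directions. Of 7 tested pioneer and lineage factors 3 were higher and 3 lower, and of 9 coactivators 4 were higher and 3 lower. Of 4 corepressors 1 was higher and 1 lower. Among all genes 25.8% were higher and 27.1% lower, and the shares of corepressors and of lower coactivators were near these. GATA2, a pioneer factor, had 68.3, 73.4 and 75.8 CPM with DMSO and 159, 159.7 and 159 CPM with abiraterone, a log2 fold change of 1.13 ± 0.0342. FOXA1, which opens chromatin, had 425, 439 and 422 CPM and 393, 390.2 and 395 CPM, a small fall (-0.13 ± 0.0231, adjusted p = 1.91e-05). HOXB13, a homeobox factor of the prostate, had a log2 fold change of 0.19 ± 0.0287. The coactivator genes NCOA2 and NCOA3 rose by 0.40 and 0.60 on the log2 scale, while the corepressor gene NCOR1 had a log2 fold change of -0.45 ± 0.0303. Under scaling by total counts 4 coactivators were higher and 1 lower, and 2 corepressors were higher and 1 lower.

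Genes that androgens repress were higher. All 4 tested members of that list rose at least 2-fold, with a median log2 fold change of 2.45, and 2 further members were below the filter on low counts. CAMK2N1, an inhibitor of the kinase CaMKII, had 6.83, 6.75 and 5.37 CPM with DMSO and 129.5, 133 and 133 CPM with abiraterone (4.40 ± 0.0648 on the log2 scale, adjusted p = 9.12e-29). The receptor tyrosine kinase gene MET rose from 7.37, 7.92 and 8.05 CPM to 25.6, 25.0 and 24.3 CPM. UGT2B17 and UGT2B15 encode enzymes that inactivate androgens by adding glucuronic acid. UGT2B17 had 6.55, 6.29 and 6.21 CPM with DMSO and 63.5, 55.3 and 57.4 CPM with abiraterone. UGT2B15 had 18.1, 17.5 and 18.5 CPM and 57.5, 55.7 and 55.6 CPM, again with no overlap.

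Other members of the UGT2B family moved in both directions. UGT2B10 rose by 0.75 ± 0.181 on the log2 scale (adjusted p = 0.000657), and UGT2B7, with 0.0679, 0.0873 and 0.127 CPM and 0.0872, 0.318 and 0.154 CPM, did not pass the threshold (adjusted p = 0.248). UGT2B28 fell from 53.5, 55.6 and 58.7 CPM to 2.53, 1.40 and 2.12 CPM. UGT2B11 fell from 85.6, 84.6 and 82.9 CPM to 6.25, 6.16 and 6.04 CPM. These genes are near-identical copies side by side on chromosome 4, so how reads were shared among them is uncertain. In the whole list of steroid synthesis and clearance, 11 of 22 tested genes were lower and 6 higher. The share of higher genes was near the 25.8% of all genes, of which 27.1% were lower. CYP17A1, the target of the drug, was barely expressed: its counts with DMSO gave 0.0340, 0.0582 and 0.177 CPM, it had no count in the 3 abiraterone libraries, and no fold is given (adjusted p = 0.00599, and 0.0605 without DMSO replicate C). CYP11A1, which cuts the side chain of cholesterol at the start of steroid synthesis, had 2.58, 2.79 and 2.61 CPM with DMSO and 0.320, 0.254 and 0.339 CPM with abiraterone (-3.11 ± 0.258 on the log2 scale). HSD3B1, which turns precursors into active androgens and also acts on abiraterone, rose from 0.0679, 0.145 and 0.177 CPM to 0.901, 1.24 and 1.20 CPM. AKR1D1, a reductase that clears steroids, had 3.94, 4.71 and 3.8 CPM with DMSO and 0.145, 0 and 0.0308 CPM with abiraterone. HSD17B6, a dehydrogenase of androgen metabolites, had a log2 fold change of -1.60 ± 0.190. Of the 36 genes listed, 14 were below the filter, among them AKR1C3, SRD5A2 and HSD17B3.

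Apart from PLA2G2A and CAMK2N1, the largest rises past the threshold, where the group with more RNA averaged 100 counts or more, were mostly of genes near silent with DMSO. MATN2, a matrix protein, had 0.407, 0.349 and 0.380 CPM with DMSO and 23.2, 22.9 and 22.4 CPM with abiraterone (5.90 ± 0.129 on the log2 scale). PREX1, an activator of Rac, rose from 1.05, 1.25 and 1.47 CPM to 45.2, 41.4 and 38.6 CPM. CNTN5, a neural adhesion molecule, rose from 0.475, 0.378 and 0.456 CPM to 16.4, 13.8 and 14.8 CPM. In each of these the lowest abiraterone library lay many times above the highest DMSO library. COLEC12, a scavenger receptor, was already expressed and rose from 7.67, 9.98 and 9.42 CPM to 192, 193 and 193 CPM (4.40 ± 0.0544, adjusted p = 1.48e-34). SMOC1, a secreted modulator of growth factors, rose from 0.0679, 0.0582 and 0.101 CPM to 4.62, 3.18 and 3.11 CPM. COL5A1, a fibrillar collagen chain, rose from 0, 0.116 and 0.253 CPM to 2.99, 4.16 and 2.99 CPM. UPK2, a urothelial membrane protein, rose from 0.204, 0.378 and 0.0253 CPM to 3.98, 4.54 and 3.97 CPM. Each DMSO library held 10 counts or fewer of SMOC1 and of COL5A1. TUBA1A, an alpha-tubulin that shares sequence with its paralogs, had a log2 fold change of 4.51 ± 0.0980. The read-through transcript C1QTNF3-AMACR, which overlaps AMACR, had 1.09, 0.204 and 0 CPM with DMSO and 6.36, 5.69 and 4.10 CPM with abiraterone, and its reads cannot be told from those of AMACR with certainty.

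The deepest falls ended near 0. In 5 genes every abiraterone library held at most 3 counts while the mean with DMSO was at least 100 counts, and no gene went from such a low count to 100 or more. SLC38A4, an amino acid transporter (chromosome 12, 46764761 to 46832408 on GRCh38), had 143, 180 and 225 counts with DMSO and 1 count in each abiraterone library, at least 57.5-fold lower. SLC2A3, the glucose transporter GLUT3 (chromosome 12, 7919230 to 8019007 on GRCh38), had 129, 131 and 165 counts with DMSO and 0, 1 and 1 with abiraterone, at least 45-fold lower. HPGD, described above, the long noncoding RNA LINC01647 (at least 35.3-fold lower) and 1 long noncoding RNA without a symbol on chromosome 2 were the others. With a limit of 10 counts the switched genes were 10 that fell and 3 that rose, PLA2G2A, SMOC1 and COL5A1.

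Close to this limit, ADAM7, a metalloprotease-like protein of the male reproductive tract, had 21.4, 21.4 and 21.6 CPM with DMSO and 0.145, 0.0318 and 0.185 CPM with abiraterone (-7.42 ± 0.176 on the log2 scale, adjusted p = 4.64e-28). AFF3, a nuclear transcriptional regulator, fell from 106, 109 and 111 CPM to 1.57, 2.03 and 1.73 CPM. CHRNA2, a nicotinic receptor subunit, fell from 28.2, 24.3 and 27.1 CPM to 0.639, 0.508 and 0.801 CPM. In both, what remained was a few percent of the DMSO level or less. F5, coagulation factor V, fell from 36.2, 35.5 and 35.4 CPM to 1.22, 1.18 and 0.862 CPM. PNLIPRP3, a lipase-related gene, and OR5B2, an olfactory receptor gene, fell by 5.83 and 5.80 on the log2 scale. In none of these did the groups overlap.

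Of the 6 called genes with the largest gains in CPM, 4 were transcripts of the mitochondrial genome with small ratios. MT-ND4 and MT-CYB, respiratory chain subunits, had log2 fold changes of 0.20 ± 0.0552 and 0.33 ± 0.0470. MME, the membrane peptidase neprilysin (CD10), had 653, 673 and 693 CPM with DMSO and 1686, 1649 and 1679 CPM with abiraterone, a log2 fold change of 1.31 ± 0.0251. MALAT1, a nuclear long noncoding RNA, had 2538, 2326 and 2260.0 CPM and 3401, 3936 and 3348 CPM. Among the largest losses past the threshold, next to ACSL3 and KLK3, were those of RASSF3, FASN and ABHD2. RASSF3, a member of the RASSF family of Ras-association proteins, fell from 1920.0, 1852 and 1776 CPM to 682, 696 and 721 CPM. ABHD2, a hydrolase, fell from 2171, 2203 and 2243 CPM to 1361, 1464 and 1428 CPM.

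**Figure D3:**
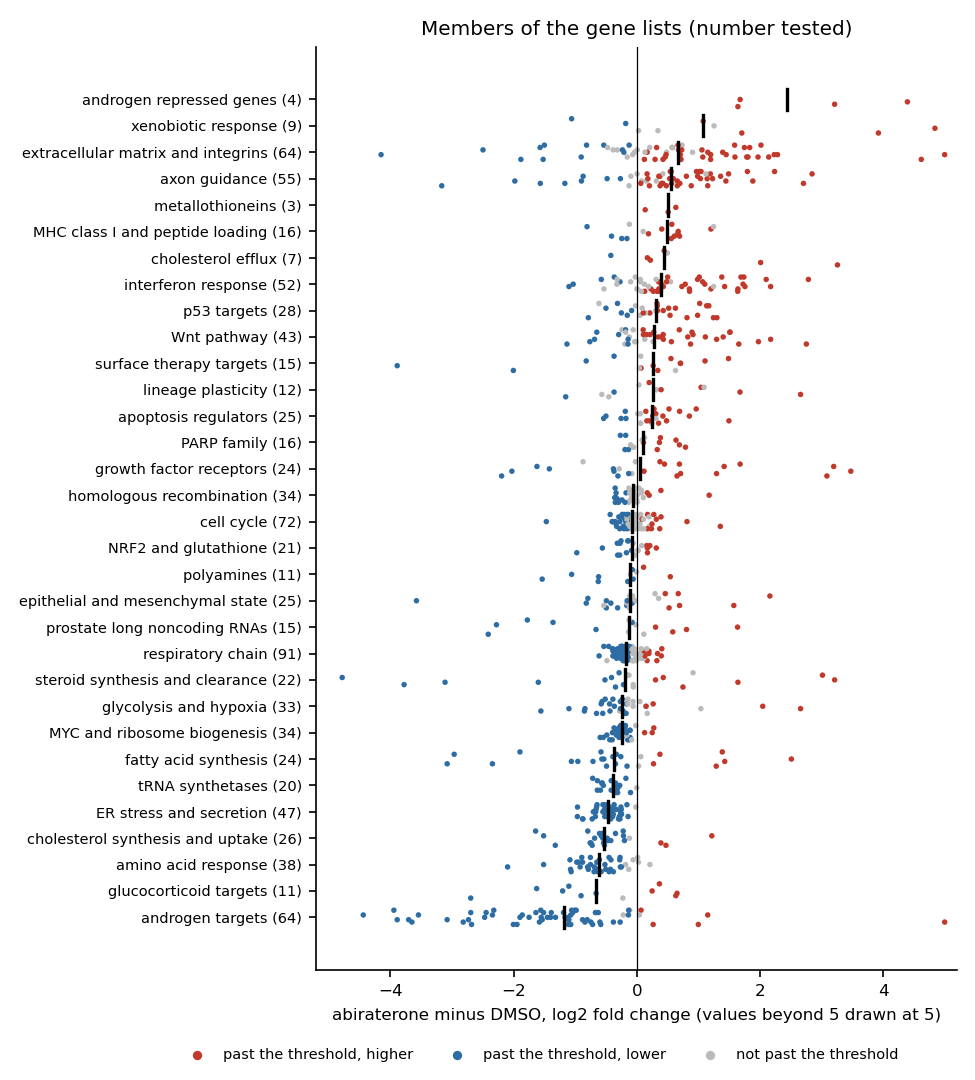
Log2 fold change (abiraterone minus DMSO) of the tested members of 32 gene lists, one point per gene, with the number tested in brackets and the median as a black bar. Red and blue points passed the threshold, grey ones did not, and genes with at most 3 counts in every library of a group are left out of the points. The lists run from androgen repressed genes (median 2.45) to androgen targets (-1.18), and in ER stress and secretion every point past the threshold is lower.

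Lipid genes were mostly lower. Cells make cholesterol from acetyl-CoA through mevalonate, take it up from lipoproteins and export it through ABC transporters, and SREBP factors raise synthesis and uptake together. Of 26 genes of synthesis and uptake, 22 were lower and 3 higher, against 27.1% lower and 25.8% higher among all genes, with a median log2 fold change of -0.53. The sterol sensor INSIG1 fell from 416, 410.3 and 412 CPM to 161, 166 and 168 CPM. The sterol carrier gene STARD4 fell from 37.4, 35.6 and 37.1 CPM to 11.5, 12.4 and 11.4 CPM. These 2 genes had log2 fold changes of -1.32 ± 0.0270 and -1.64 ± 0.0580. In the other direction, TM7SF2, a sterol reductase, rose from 51.8, 51.2 and 46.2 CPM to 122, 112 and 113 CPM. Of 7 genes of cholesterol efflux 5 were higher and 1 lower. The export transporter ABCA1 had 0.238, 0.582 and 0.127 CPM with DMSO and 2.85, 3.18 and 3.02 CPM with abiraterone (3.26 ± 0.266). ABCG1 had 3.29, 3.35 and 3.17 CPM and 13.5, 12.4 and 13.7 CPM (2.01 ± 0.104).

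In fatty acid synthesis 16 of 24 genes were lower and 6 higher, against the same 27.1% and 25.8% of all genes. FASN, the synthase, had 1535, 1475 and 1645 CPM with DMSO and 732, 769.5 and 730.5 CPM with abiraterone (-1.06 ± 0.0494). The desaturase gene SCD had a log2 fold change of -0.53 ± 0.0290. The elongase genes ELOVL7 and ELOVL2 had lower ratios still. ELOVL7 fell from 476, 484 and 482 CPM to 95.4, 93.1 and 95.5 CPM. ELOVL2 fell from 22.9, 26.1 and 23.3 CPM to 3.57, 3.27 and 2.40 CPM. Among genes of activation and storage, 4 were higher and 4 lower of 10.

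Nearly all genes of the secretory pathway were lower, by small amounts. The ER folds secreted proteins, and the factors XBP1 and ATF6 raise its capacity. Of 47 genes of ER stress and secretion 46 were lower and none higher, against 27.1% lower among all genes, with a median log2 fold change of -0.46 and none at least 2-fold. SSR3, a subunit of the translocon-associated complex, had 492, 496 and 517 CPM with DMSO and 258, 244 and 270.1 CPM with abiraterone (-0.96 ± 0.0301). SPCS3, of the signal peptidase, fell from 179, 178 and 186 CPM to 94.3, 90.7 and 93.9 CPM. The factor gene CREB3L2, which drives secretory genes, fell from 179.5, 186 and 183 CPM to 96.1, 102 and 102 CPM. The chaperone gene HSPA5 (BiP) and the stress factor gene XBP1 changed less, with log2 fold changes of -0.28 ± 0.0258 and -0.42 ± 0.0367.

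Genes of the amino acid response, which the factor ATF4 switches on when amino acids are short, were lower in 32 of 38 cases and higher in none (median log2 fold change -0.62). The count of higher genes was 1 without abiraterone replicate A, under scaling by total counts and with a minimum of 50 counts on average. ASNS, asparagine synthetase, had 438, 402 and 366 CPM with DMSO and 214, 196 and 215 CPM with abiraterone (-0.95 ± 0.0621, adjusted p = 1.77e-09). The glutamine transporter gene SLC1A5 fell from 209, 205 and 198 CPM to 98.1, 93.9 and 99 CPM. The cystine transporter gene SLC7A11 fell from 190.4, 190.0 and 176 CPM to 89.2, 97.2 and 97.1 CPM. The groups of these genes did not overlap. The serine synthesis gene PSAT1 fell from 543, 494 and 464 CPM to 274, 255 and 279.5 CPM. The other 6 did not pass the threshold, among them DDIT3, which encodes the stress factor CHOP. It had 15.9, 13.1 and 13.3 CPM and 12.5, 12.6 and 12 CPM (adjusted p = 0.0588), and passed without DMSO replicate B (0.0324) or C (0.0365). Of 20 aminoacyl-tRNA synthetases 19 were lower (median -0.38), led by GARS1 with a log2 fold change of -0.72 ± 0.0326. In polyamine metabolism 7 of 11 genes were lower, or 4 without abiraterone replicate C and under scaling by total counts, and 2 were higher, or 0 without DMSO replicate C. Those lower include SAT1, which starts polyamine breakdown (-1.54 ± 0.0380), the spermine synthase gene SMS (-1.06 ± 0.0264) and ODC1, the first step of synthesis (-0.62 ± 0.0239).

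Growth-linked housekeeping genes shifted by less. Of 34 genes of MYC targets and ribosome biogenesis 28 were lower and 3 higher, with a median log2 fold change of -0.25. HSPD1, a mitochondrial chaperonin, had 1936, 1953 and 1909 CPM with DMSO and 1299, 1267 and 1278 CPM with abiraterone, and MYC itself had a log2 fold change of -0.40 ± 0.0606. The respiratory chain differed by genome of origin. Of 78 subunits encoded in the nucleus 61 were lower and 1 higher (median -0.20), for instance NDUFB10 (163, 165 and 163 CPM against 115, 112 and 112 CPM), while of 13 encoded in the mitochondrion 8 were higher and none lower (median 0.16). MT-ND5 had 3651, 3698 and 3360.0 CPM with DMSO and 4599, 4906 and 4698 CPM with abiraterone. Under scaling by total counts the counts were 4 higher and 50 lower in the nucleus and 12 higher and none lower in the mitochondrion. In glycolysis and hypoxia 20 of 33 genes were lower, among them HK2, hexokinase 2 (-1.10 ± 0.0434), LDHA, lactate dehydrogenase A (-0.58 ± 0.0847), and the glucose transporter gene SLC2A1 (-0.55 ± 0.0486), and 4 were higher. CA12, a carbonic anhydrase, rose from 12.3, 12.5 and 13.4 CPM to 54.0, 52.0 and 52.5 CPM. ENO2, the neuronal enolase, rose from 2.04, 2.10 and 2.10 CPM to 12.5, 13.8 and 13.2 CPM.

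Changes of cell cycle genes were small. Of 72 cell cycle genes 30 were lower and 11 higher, with a median log2 fold change of -0.08, and under scaling by total counts 18 were lower and 16 higher with a median of -0.01. The proliferation marker MKI67 had 227, 272 and 301 CPM with DMSO and 219.9, 266 and 231 CPM with abiraterone, with overlapping groups (adjusted p = 0.162, but 0.0133 without DMSO replicate A and 0.0456 without abiraterone replicate B). A few regulators had larger changes. CDKN1A, the cell cycle inhibitor p21, had 58.2, 57.3 and 46.8 CPM and 94.1, 97.5 and 93.2 CPM (0.82 ± 0.0548, adjusted p = 1.07e-10). The antiproliferative gene BTG2 rose from 15.6, 14.7 and 12.5 CPM to 38.6, 35.4 and 34.8 CPM. The kinase gene CDK6 fell from 10.4, 10.2 and 11.1 CPM to 3.69, 3.75 and 4.03 CPM. The cyclin gene CCND1 had a log2 fold change of 0.37 ± 0.0260.

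Of 28 targets of the tumor suppressor p53, 16 were higher and 6 lower (median 0.32), against 25.8% and 27.1% of all genes, and the lower count was 3 in a fit of only the groups compared. TP53INP1, a stress-induced p53 partner, rose from 103, 99.1 and 87.2 CPM to 239.6, 237 and 236 CPM. The death receptor gene FAS rose from 3.19, 3.06 and 2.35 CPM to 6.88, 5.37 and 6.93 CPM. MDM2, which degrades p53, had 178, 179.9 and 180.4 CPM and 183, 186 and 189.9 CPM (adjusted p = 0.122, but 0.00052 under scaling by total counts and 0.0485 with a minimum of 50 counts on average). In homologous recombination 20 of 34 genes did not pass the threshold, 10 were lower and 4 higher. The share of lower genes was near the 27.1% of all genes, of which 25.8% were higher. The median of -0.06 turned to 0.01 under scaling by total counts. BRCA1 had 71.8, 80.3 and 82.8 CPM with DMSO and 76.8, 80.2 and 79.5 CPM with abiraterone (adjusted p = 0.933). BRCA2, with 76.3, 91.4 and 102 CPM and 70.0, 77.6 and 73.5 CPM, had a log2 fold change of -0.29 ± 0.105 (adjusted p = 0.0276), and its call was lost without DMSO replicate B or C or abiraterone replicate A or C (adjusted p between 0.0657 and 0.156), under scaling by total counts (0.0894), with no filter on low counts (0.0713) and in a fit of only the groups compared (0.128). BARD1, the partner of BRCA1, rose from 73.3, 82.5 and 83.3 CPM to 184, 181 and 176 CPM (1.18 ± 0.0386). PARP1 had a log2 fold change of -0.13 ± 0.0212, and in the PARP family 7 of 16 genes were higher and 4 lower, or 9 and 3 under scaling by total counts. The share of lower genes in this family was near the 27.1% of all genes.

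Interferon genes were higher in 32 of 52 cases and lower in 5 (median 0.39), 15 of them higher at least 2-fold, where 6.99% of all genes rose that far. The changed sensors and stimulated genes described here were weakly expressed. The transcription factor gene IRF1 had 1.36, 1.86 and 1.54 CPM with DMSO and 4.42, 4.83 and 3.63 CPM with abiraterone. The RNA sensor gene TLR3 had 0.679, 1.02 and 0.836 CPM and 3.75, 3.75 and 4.03 CPM. The guanylate-binding protein gene GBP2 had 0.0679, 0.116 and 0.405 CPM and 1.57, 1.43 and 1.39 CPM, again without overlap. In antigen presentation, 9 of 16 genes of MHC class I and peptide loading were higher and 4 lower. The share of lower genes there was near the 27.1% of all genes, of which 25.8% were higher. HLA-B rose from 16.0, 16.1 and 14.2 CPM to 24.7, 24.0 and 26.2 CPM, though its reads can be shared with other HLA genes. B2M, the invariant light chain of every MHC class I molecule, fell from 205, 194 and 189.5 CPM to 110.5, 111 and 114 CPM (-0.81 ± 0.0348, adjusted p = 1.96e-20).

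Genes of cell contact and positional signaling rose more often than they fell. Of 64 genes of extracellular matrix and integrins, 38 were higher and 12 lower (median 0.67), and of 55 genes of axon guidance 39 were higher and 8 lower (median 0.56), against 25.8% and 27.1% of all genes. With a minimum of 50 counts on average, 25 matrix genes were higher and 5 axon guidance genes lower. MATN2 and COL5A1, described above, belong to the first list. LAMA1, a laminin chain, changed in the other direction, with 24.7, 27.9 and 30.2 CPM with DMSO and 1.69, 1.84 and 1.14 CPM with abiraterone (-4.15 ± 0.168). Of the guidance cues, SEMA6B rose from 0.238, 0.116 and 0.228 CPM to 1.31, 1.40 and 1.54 CPM. SEMA6D fell from 1.32, 1.43 and 1.44 CPM to 0.0872, 0.222 and 0.154 CPM. UNC5B, a netrin receptor, rose from 0.985, 0.902 and 0.861 CPM to 3.28, 4.0 and 2.86 CPM. The summed fibroblast and endothelial markers moved the same way as these lists, as given above, and their part in the result was not tested. COL1A1 and COL3A1 belong to both the fibroblast markers and the matrix list, and of the endothelial markers only VWF passed the filter.

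In the Wnt pathway, where secreted ligands stabilize beta-catenin, 26 of 43 genes were higher and 8 lower (median 0.28), or 27 and 5 under scaling by total counts, against 25.8% higher and 27.1% lower among all genes. Of 8 ligands 5 were higher and none lower, for example WNT9A with 1.90, 1.66 and 1.77 CPM under DMSO and 4.97, 5.27 and 4.96 CPM under abiraterone. WNT4 had 0.374, 0.466 and 0.380 CPM and 1.98, 1.72 and 1.85 CPM. APCDD1, a membrane inhibitor of Wnt signaling, had 1.63, 1.51 and 1.32 CPM with DMSO and 10.4, 9.47 and 10.0 CPM with abiraterone (2.75 ± 0.154). The secreted inhibitor gene DKK1 and the receptor gene ROR2 had at most 3 counts in every DMSO library and were at least 9.15-fold and 9.04-fold higher. Of 12 transducers and targets 6 were higher and 3 lower (1 under scaling by total counts), with a median of 0.05. LEF1 and AXIN2 rose by 0.90 ± 0.120 and 0.69 ± 0.147 on the log2 scale, while TCF7L2, a transcription factor gene named after its value was seen, had a log2 fold change of -0.29 ± 0.0657. CTNNB1, which encodes beta-catenin, had a log2 fold change of -0.04 ± 0.0248 (adjusted p = 0.238), or 0.03 under scaling by total counts (adjusted p = 0.265).

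Markers of lineage change gave no common direction. Of 27 genes of neuroendocrine and stem-like state 15 were below the filter, CHGA, INSM1 and NEUROD1 among them, and of the 12 tested 5 were higher and 2 lower (1 without abiraterone replicate A). Of the 3 neuroendocrine markers tested 1 was higher and 2 lower. SYP, synaptophysin, fell from 2.48, 2.50 and 2.18 CPM to 0.814, 1.02 and 1.39 CPM, whereas ENO2, given above, rose by 2.66 ± 0.0952 on the log2 scale. SOX4, a developmental transcription factor, rose from 109, 104 and 93.7 CPM to 336, 319 and 323 CPM. Of epithelial and mesenchymal genes 6 of 25 were higher and 10 lower, or 6 and 7 under scaling by total counts, the share of higher genes being near the 25.8% of all genes. Of 15 epithelial genes 4 were higher and 7 lower, and of 10 mesenchymal genes 2 were higher and 3 lower (1 under scaling by total counts). The adhesion gene CDH1 had 532, 533 and 511 CPM with DMSO and 737, 766 and 766 CPM with abiraterone. The tight junction gene OCLN rose from 38.9, 37.6 and 40.9 CPM to 115, 119 and 116 CPM. The keratin gene KRT18, also epithelial, had a log2 fold change of -0.49 ± 0.0289. The repressor gene SNAI2, whose product represses epithelial adhesion genes, fell from 12.3, 13.8 and 11.5 CPM to 1.19, 1.08 and 0.862 CPM. The mesenchymal genes that were higher were VIM, the filament protein vimentin, with a log2 fold change of 0.69 ± 0.0855, and ACTA2, a smooth muscle actin, with 2.16 ± 0.298.

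The insulin-like growth factor (IGF) axis changed in both directions, with 5 of 10 genes higher and 5 lower, and 7 of them at least 2-fold. IGF1R, the receptor, had 127, 140.0 and 154 CPM with DMSO and 27.7, 34.2 and 30.4 CPM with abiraterone (-2.19 ± 0.0818, adjusted p = 7.93e-13). Its ligand gene IGF1 fell from 57.9, 67.4 and 66.9 CPM to 20.6, 21.2 and 20.9 CPM. The adaptor gene IRS1 fell from 7.74, 6.87 and 7.42 CPM to 1.80, 1.62 and 1.97 CPM, and its relative IRS2 had a log2 fold change of -1.42 ± 0.0965. In the opposite direction, IGFBP3, which binds the ligands, rose from 6.62, 8.32 and 9.90 CPM to 79.8, 69.0 and 65.5 CPM. Of the ERBB family, ERBB2 rose from 147, 135 and 130.5 CPM to 230.2, 224 and 222 CPM. The ligand gene TGFA had a log2 fold change of 1.42 ± 0.144, and its receptor gene EGFR one of -0.30 ± 0.0424.

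Genes that respond to glucocorticoids, a class that overlaps with androgen targets, were lower in 6 of 11 cases and higher in 4. ZBTB16, a zinc finger repressor, fell from 84.4, 88.0 and 96.9 CPM to 28.6, 28.7 and 30.1 CPM. TSC22D3 (GILZ) had a log2 fold change of -0.90 ± 0.0599, and the clock gene PER1 one of 0.65 ± 0.0811. Among 15 genes for surface proteins targeted by therapies, 8 were higher and 4 lower, the latter a share near the 27.1% of all genes. FOLH1, which encodes PSMA, had 797, 798 and 766 CPM with DMSO and 1013, 981 and 999.9 CPM with abiraterone (0.34 ± 0.0231). NECTIN4, a target of an antibody-drug conjugate, had 10.0, 8.0 and 8.54 CPM and 20.4, 17.0 and 19.6 CPM. Of 15 prostate long noncoding RNAs 7 were lower and 4 higher, against 27.1% and 25.8% of all genes, and the lower count was 3 with a minimum of 50 counts on average. ARLNC1, an androgen-regulated transcript, fell from 20.6, 20.3 and 20.2 CPM to 3.75, 4.64 and 4.22 CPM. In apoptosis 11 of 17 death genes were higher and 3 lower, against 25.8% and 27.1% of all genes. BMF, a BH3-only activator, had 7.78, 6.69 and 5.50 CPM with DMSO and 17.9, 19 and 18.9 CPM with abiraterone. Of 8 survival genes 3 were higher and 2 lower, or 5 and 2 under scaling by total counts. The share of lower survival genes was near the 27.1% of all genes. All 3 metallothioneins tested were higher, MT2A most (0.63 ± 0.0579), though the call of MT1F (adjusted p = 0.0162) was lost without abiraterone replicate C (0.0639) and with no filter on low counts (0.0557). Of 21 genes of the NRF2 and glutathione system 11 were lower and 5 higher, the latter a share near the 25.8% of all genes.

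Enzymes of foreign-compound metabolism were among the steep rises. CYP1A1, a target of the aryl hydrocarbon receptor, had 1.09, 1.05 and 1.22 CPM with DMSO and 17.7, 15.7 and 17.8 CPM with abiraterone (3.92 ± 0.122, adjusted p = 1.19e-24). Its neighbour CYP1A2 had 0.0340, 0.0873 and 0.101 CPM and 2.76, 1.68 and 2.46 CPM. The efflux pump gene ABCG2 rose from 2.72, 2.01 and 2.41 CPM to 8.40, 7.78 and 7.02 CPM. The related pump gene ABCC1 fell from 248, 243 and 251 CPM to 121, 122 and 114 CPM. CYP1B1, another target of the receptor, had 2.27, 1.46 and 1.90 CPM and 1.83, 2.19 and 3.11 CPM, with overlapping groups (adjusted p = 0.162). TIPARP, a further one, had a log2 fold change of -0.18 ± 0.0697 (adjusted p = 0.03), a call lost without DMSO replicate B (0.123) or abiraterone replicate C (0.22), under scaling by total counts (0.183), with no filter on low counts (0.0726) and in a fit of only the groups compared (0.0756). In the whole list 4 of 9 genes were higher and 2 lower (1 in each of these cases).

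The effect of abiraterone was next read in libraries that the comparison with DMSO did not use, as abiraterone plus olaparib against olaparib alone. In that comparison 27.3% of the genes tested were higher and 29.3% lower, 5081 and 5454 genes, and under scaling by total counts 6334 and 4232. Of the 4803 genes higher with abiraterone alone, 3730 were also higher with olaparib present, 77.7% of that list and 73.4% of the other, and 65 were lower. Of the 5050 lower genes, 4147 were also lower, 82.1% and 76.0% of the lists, and 49 were higher. Among genes with at least 2-fold changes, 1116 of 1302 rises and 541 of 657 falls were called in the same direction, and 1 and 2 in the opposite one.

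Androgen targets fell there too. With olaparib present 55 of 64 were lower and 5 higher, with a median log2 fold change of -1.46. KLK3 had 1652, 1649 and 1612 CPM with olaparib and 503, 503 and 492 CPM with the combination, a log2 fold change of -1.71 ± 0.0453 (adjusted p = 9.80e-16). SLC45A3 had 334, 324 and 321 CPM and 22.8, 21.9 and 22.9 CPM. ACSL3 had 2086, 2061 and 2020.0 CPM and 214, 207 and 202 CPM. The separation of the groups was as wide as without olaparib. For PLA2G2A the log2 fold change was 5.36 ± 0.203, for MATN2 5.76 ± 0.114 and for ASNS -0.69 ± 0.0654. All 47 genes of ER stress and secretion were lower there.

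A direct test of the difference between both effects, an interaction, asked whether olaparib changed the effect of abiraterone. It was past the threshold for 4.74% of genes in the positive and 8.08% in the negative direction. These were 882 and 1504 genes, and under scaling by total counts 1026 and 1254. Of the genes past the threshold, 136 differed by at least 1 on the log2 scale. Among the 1302 rises of at least 2-fold 171 differed, 105 of them toward a smaller change with olaparib, and among the 657 falls 122 differed, 60 of them toward a smaller change. NDRG1 had 494, 447 and 419 CPM with olaparib and 94.2, 97.5 and 84.8 CPM with the combination, a log2 fold change of -2.30 ± 0.0909 that was lower than the one without olaparib by 1.45 ± 0.128 (adjusted p of the difference 2.84e-06). CAMK2N1 had 15.1, 13.5 and 14.1 CPM and 129, 130.4 and 135 CPM, a log2 fold change of 3.20 ± 0.0564, smaller than without olaparib (adjusted p of the difference 1.00e-09). Its olaparib libraries lay above the DMSO libraries, while the libraries of both groups with abiraterone overlapped. PLK3, a stress-linked kinase gene, rose by 1.14 without olaparib and had a log2 change of -0.02 ± 0.104 with it (adjusted p of the difference 1.73e-06). FKBP5 fell by 2.69 and, with olaparib, by 3.15 (adjusted p of the difference 1.46e-10).

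**Figure D4:**
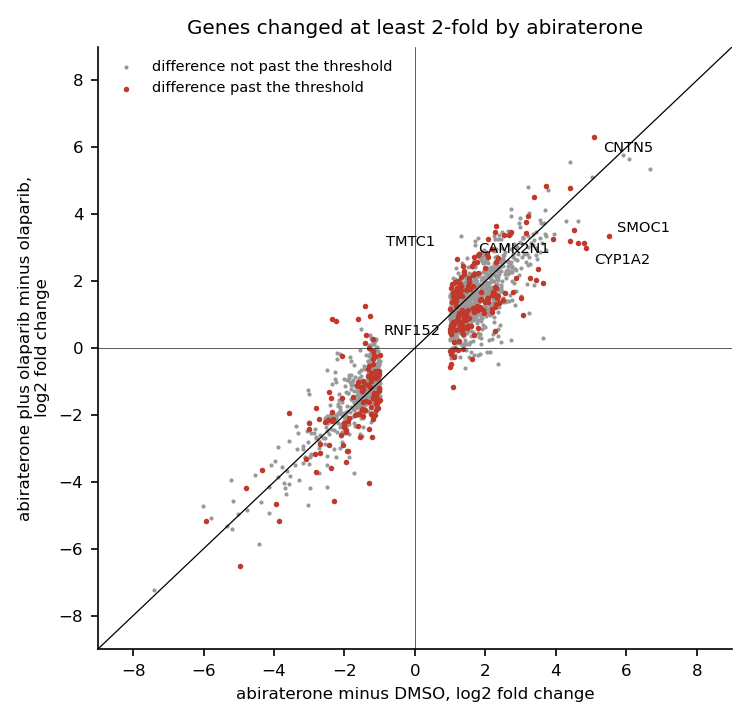
Log2 fold change with abiraterone plus olaparib against olaparib (vertical) plotted over that with abiraterone against DMSO (horizontal), for 1704 genes changed at least 2-fold by abiraterone alone. Genes near 0 counts in a group are left out, and red points mark the 286 genes whose effects differ at an adjusted p under 0.05. The points follow the diagonal on which both effects are equal, with few in the opposite quadrants; the horizontal values chose the genes.

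Abiraterone at 5 µM was last set against enzalutamide at 20 µM, at doses that differ, by a direct test of both groups of 3 libraries. Here 10.1% of the genes tested were higher with abiraterone and 9.78% lower, 1872 and 1822 genes, and under scaling by total counts 2155 and 1567. Of the genes tested 229 differed at least 2-fold, 169 of them higher. Both comparisons use the abiraterone libraries, so values are given side by side.

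Of the androgen targets 41 of 64 were higher with abiraterone than with enzalutamide and 5 lower, and the median difference was 0.26. KLK3 had 461, 497 and 498 CPM with abiraterone and 329, 295 and 289 CPM with enzalutamide, a log2 difference of 0.67 ± 0.0453 (adjusted p = 8.47e-09). KLK2 had 25.6, 24.1 and 25.9 CPM and 13.9, 14.0 and 14.2 CPM. Both lay higher in every abiraterone library than in any enzalutamide library. FKBP5 differed by 0.11 ± 0.0280 and CAMKK2 by 0.07 ± 0.0478 (adjusted p = 0.382). TRPM8, a cold-sensing ion channel that androgen raises, differed by 2.52 ± 0.0990. It had 25.4, 24.7 and 23.2 CPM with DMSO, 10.4, 10.7 and 11.1 CPM with abiraterone and 1.37, 1.91 and 2.20 CPM with enzalutamide. All 4 androgen-repressed genes were higher with abiraterone as well, UGT2B17 by 0.98 ± 0.0609.

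The amino acid response was lower with abiraterone than with enzalutamide. Of its 38 genes 32 were lower with abiraterone than with enzalutamide and none higher, with a median difference of -0.56, and 12 of 20 aminoacyl-tRNA synthetases were lower and 1 higher. ASNS had 438, 402 and 366 CPM with DMSO, 214, 196 and 215 CPM with abiraterone and 421, 393 and 414 CPM with enzalutamide, and its enzalutamide libraries lay within the range of DMSO. SLC7A11 differed by -1.16 ± 0.0681 and CHAC1, a glutathione-degrading enzyme, by -1.35 ± 0.123. In the ER stress and secretion list 21 of 47 genes were lower with abiraterone and 3 higher. XBP1 had 151, 140.2 and 151 CPM against 211, 193 and 204 CPM.

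CYP1A1 and CYP1A2 lay higher with abiraterone. CYP1A1 had 17.7, 15.7 and 17.8 CPM against 3.50, 4.15 and 3.78 CPM (2.16 ± 0.0998, adjusted p = 4.90e-18). CYP1A2 had 2.76, 1.68 and 2.46 CPM against 0.334, 0.0236 and 0.0718 CPM. ZBTB16 had 28.6, 28.7 and 30.1 CPM and 11.5, 9.15 and 9.36 CPM. ST6GALNAC1, a sialyltransferase that androgen raises, had 74.5, 70.8 and 77.2 CPM and 27, 26.4 and 26.4 CPM. With abiraterone both were lower than with DMSO, and with enzalutamide they lay lower still. NAV3, a neuron navigator gene, was expressed at 7.15, 7.34 and 7.36 CPM with abiraterone, against 3.8, 3.35 and 3.70 CPM with DMSO and 2.13, 2.85 and 2.49 CPM with enzalutamide. Below enzalutamide lay NIBAN1, a stress-induced gene, with 24.4, 27.9 and 31.2 CPM against 68.8, 54.1 and 64.3 CPM. PDE2A, a phosphodiesterase, had 1.57, 1.75 and 1.94 CPM against 4.64, 3.82 and 3.47 CPM. In mitosis 15 of 25 genes were lower with abiraterone and none higher. Extracellular matrix genes (9 higher, 10 lower of 64) and axon guidance genes (10 higher, 4 lower of 55) mostly did not pass the threshold between both drugs.

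**Figure D5:**
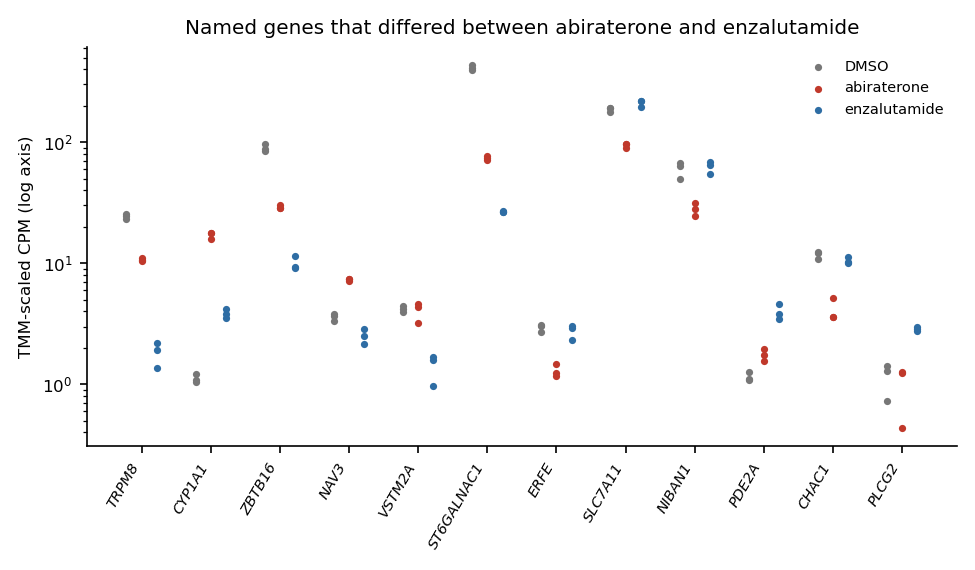
Level (TMM-scaled CPM, log axis) of the 12 genes with the largest log2 differences between abiraterone and enzalutamide past the threshold, 6 in each direction, among genes that averaged 100 counts or more in the higher group, with small RNA families and pseudogenes left out, in every library of DMSO (grey), abiraterone (red) and enzalutamide (blue). TRPM8 at 10.4, 10.7 and 11.1 CPM with abiraterone lies above 1.37, 1.91 and 2.20 CPM with enzalutamide, and CHAC1 at 5.17, 3.59 and 3.57 CPM lies below 11.3, 10.1 and 10.2 CPM.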

How the data were processed

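RNA-seq libraries were made by the authors with a stranded mRNA kit from C4-2B cells and sequenced as paired reads. The authors trimmed reads with Trim Galore, aligned them with STAR to GRCh38 and quantified genes with Salmon on a GENCODE annotation. The deposited values are estimated counts per gene, already whole numbers, for 63187 genes in 39 libraries, and they were used unchanged. Symbols and coordinates came from another GENCODE release of GRCh38, with 42338 gene IDs paired with a symbol (the 20849 others held 0.796% of counts).

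The 21 libraries of the 5-day panel (7 groups of 3) were fitted together with edgeR 4.0.16 (R 4.3.3), with TMM scaling, the filterByExpr filter and the quasi-likelihood test, so that all groups share the estimate of the spread. Benjamini-Hochberg adjustment was over the 18625 genes tested, with a threshold of 0.05. Scaled CPM values serve for display. DESeq2 1.42.0, other scalings and filters, a replicate block and fits without each replicate were alternatives. The fits were also run on simulated data, where of 66 genes changed 2-fold 50 were called, all with the right sign. Few genes were changed there, in both directions, so that run does not test the scaling where many genes change.

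Named genes were the 12 largest called rises and falls for which the group with more RNA averaged 100 counts or more, the 6 largest gains and losses in CPM, under the same minimum the 6 largest differences from enzalutamide in each direction and the largest differences between the effects with and without olaparib, and members of gene lists (anchor genes and the largest changes of each list). Lists were written from general knowledge. Members and lists were chosen with earlier results of these data known. Promoter sequences are from RefSeq (GRCh38.p14), with 12283 of the genes tested matched by symbol. A fold against a group with at most 3 counts in every library is a lower bound, computed against 3 counts per library. Some genes are not reported here, though they count in their lists.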

Additional observations from a re-analysis of the deposited data

Results flagged for a closer look

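Groups of 3 libraries are too small for a test of single libraries that stand apart, so the results listed here are those in which the effect of abiraterone differed between cells with and without olaparib, by a direct test of the difference (edgeR, adjusted p under 0.05). This was so for 2386 of 18625 genes, of which 136 differed by at least 1 on the log2 scale. Among the genes named in the text or by its lists, 99 differed by less than 1 and 14 by more.

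Of these 14 genes, 8 had a lower log2 fold change with olaparib than without. The difference was -2.16 for SMOC1, -1.84 for CYP1A2, -1.77 for BTBD19, -1.68 for RCAN2, -1.45 for NDRG1, -1.19 for CAMK2N1, -1.16 for ABCA1 and -1.15 for PLK3. SMOC1, CYP1A2, RCAN2, CAMK2N1 and ABCA1 rose in both settings, and the olaparib libraries of each lay above its DMSO libraries. CYP1A2 had 0.579, 0.649 and 0.773 CPM with olaparib and 5.80, 5.29 and 5.00 CPM with the combination. BTBD19, a BTB-domain gene next to PLK3 on chromosome 1, had 1.5, 1.41 and 1.72 CPM with olaparib and 2.31, 2.04 and 2.21 CPM with the combination, a log2 fold change of 0.50 ± 0.207 against 2.27 ± 0.221 without olaparib.

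The other 6 had a higher log2 fold change with olaparib. The difference was 1.47 for TMTC1, 1.45 for RNF152, 1.39 for LINC01133, 1.25 for KIAA0408, 1.22 for CNTN5 and 1.02 for AHR. AHR, which encodes the aryl hydrocarbon receptor, had 4.65, 4.45 and 4.10 CPM with DMSO and 4.36, 4.51 and 4.59 CPM with abiraterone (adjusted p = 0.861), but 2.42, 2.99 and 2.69 CPM with olaparib and 4.95, 6.32 and 5.51 CPM with the combination (adjusted p = 4.28e-09). RNF152, a ubiquitin ligase gene, fell with abiraterone alone from 4.79, 5.70 and 4.33 CPM to 2.00, 2.60 and 1.91 CPM, and had 1.47, 1.89 and 1.6 CPM with olaparib and 2.08, 2.24 and 1.59 CPM with the combination (adjusted p = 0.222). TMTC1, a glycosyltransferase gene, had 8.43, 7.78 and 8.04 CPM with abiraterone and 16.1, 14.2 and 15.7 CPM with the combination.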

How the results depend on the processing

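The count of genes that differed between abiraterone and DMSO, 9853, was 9710 with DESeq2, 9832 with RLE scaling, 9768 with total-count scaling, 8700 of 13655 with a minimum of 50 counts on average, 9721 of 37096 with no filter, 9072 with only the groups compared and 8182 at an adjusted p under 0.01. Without 1 replicate in turn it lay between 9153 and 9465. For abiraterone plus olaparib against olaparib these counts without 1 replicate ranged from 9799 to 10053, for the difference between both effects from 1801 to 2494, for abiraterone against enzalutamide from 2882 to 3178 and over the gene lists from 709 to 736, where all libraries gave 744.

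Stricter thresholds lowered the counts. Changes of at least 2-fold left 1959 genes for abiraterone against DMSO, 2099 for abiraterone plus olaparib against olaparib, 136 for the difference between both effects and 229 for abiraterone against enzalutamide. An adjusted p under 0.01 left 1250 genes for the difference between both effects and 2335 for abiraterone against enzalutamide. With a limit of 10 in place of 3 counts, 13 genes were switched on or off in place of 5. With at most 1 mismatch, 0.057% of promoter windows of genes tested held the inverted repeat, in place of 0.578%.

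The main fit did not pair libraries by replicate letter, and correlations within groups of 3 libraries cannot exclude such a pairing. Over 12403 genes the deviations of libraries with the same letter from their group means correlated by -0.008, -0.024 and -0.025 between abiraterone and DMSO, by 0.0043, 0.135 and 0.0757 between the combination and olaparib, and by -0.152, -0.126 and 0.112 between abiraterone and enzalutamide, so that in none of these comparisons did all 3 letters exceed 0.1. With the letter as a block, 9808 genes differed between abiraterone and DMSO, 10495 between the combination and olaparib, 2306 in the difference of both effects, 3619 between abiraterone and enzalutamide, and 745 over the gene lists.

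Of 369 named genes 311 were called, and 273 of these were called in the same direction under every alternative run. Among named genes called under either scaling, the sign turned under total-count scaling for 2 genes of polyamine metabolism, AMD1 from -0.058 (adjusted p = 0.0379) to 0.010 and AZIN1 from -0.0022 to 0.066 on the log2 scale (adjusted p = 0.034 for the latter). Among list counts, total-count scaling left 5 in place of 8 lower genes in the Wnt pathway, a minimum of 50 counts on average left 25 in place of 38 higher matrix genes, 5 in place of 8 lower axon guidance genes and 3 in place of 7 lower prostate long noncoding RNAs, and a fit of only the groups compared left 3 in place of 6 lower p53 targets. Total-count scaling raises every log2 fold change between abiraterone and DMSO by about 0.069, the median it gives over all genes. Precision is limited for genes with few counts: those with at most 3 counts in every library of a group are given only as lower bounds.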
